A study of Mus musculus with 20 samples.

Results

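Mismatch repair and translesion synthesis handle DNA errors and lesions that a replication fork meets, and 8 genes of these pathways were followed in mice given oxaliplatin, a platinum drug that joins neighbouring bases of DNA. The genes were Msh3, Msh6, Pms2, Polh, Polk, Poli, Rev1 and Rev3l, taken by symbol from the 2 count tables, and all 8 were among the 55486 genes kept there and passed the filter on low counts in both tissues. RNA sequencing of kidney and of bone marrow covered C57BL/6 mice, 10 weeks old at the start, injected intraperitoneally over 8 weeks with 10 mg/kg oxaliplatin in dextrose or with 5% dextrose alone. Each tissue and treatment held 5 libraries, described as biological replicates. The study used both sexes, and the labels give no sex for a library. Y-linked genes (Ddx3y, Eif2s3y, Kdm5d and Uty) were expressed in all 20 libraries, at a mean log2 CPM of 4.26 to 5.42. No library lacked them, so by these genes none reads as female. The labels also do not say which kidney and marrow libraries came from the same mouse. Kidney RNA was taken with a column kit and marrow RNA with Trizol followed by a column, so tissue and extraction cannot be told apart in any comparison of levels between tissues.

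In mismatch repair, MutS proteins recognise errors in newly made DNA and MutL proteins cut the strand that carries them. Msh6 directs the MutS complex to base mispairs and small loops, Msh3 directs another to larger loops, and Pms2 carries the nuclease of the main MutL complex. Translesion polymerases copy past damaged bases: eta (Polh), kappa (Polk), iota (Poli) and Rev1 belong to the Y family, and Rev3l is the catalytic subunit of polymerase zeta, which extends from the base placed opposite a lesion. Polymerase eta is known for inserting bases opposite platinum-linked guanines.

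In bone marrow 6 of the 8 genes fell and 1, Polk, rose, while in kidney Polk rose and the other 7 did not pass the test. Levels are counts set to a common library size (CPM) with scaling by the trimmed mean of M-values (TMM) within the tissue, and a gene is called at an edgeR quasi-likelihood adjusted p under 0.05 over all genes tested. The marrow background was high: 33.1% of 22363 genes tested were called, 16.3% as higher and 16.8% as lower. In kidney 29.4% of 19293 genes were called, 14.4% as higher. In bulk tissue fewer cells of a type and less RNA per cell cannot be told apart. The gap between the tissues was itself past the test for Msh3, Pms2, Polh, Rev1 and Rev3l.

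The promoters of Msh3, Msh6 and Polk are shown because Msh3 and Msh6 had the E2F matches among the genes that fell in marrow, and Polk rose in both tissues. The windows are from RefSeq (GRCm38.p6), run from 250 bases before to 50 bases after an annotated start, and read 5′ to 3′ on the gene's strand. Capitals mark every match to a searched motif. Msh3 lies on the minus strand at chr13:92354954-92355253, Msh6 on the plus strand at chr17:87974800-87975099, and Polk on the minus strand with an upstream start window at chr13:96542530-96542829 and an internal start window at chr13:96519138-96519437.
Msh3: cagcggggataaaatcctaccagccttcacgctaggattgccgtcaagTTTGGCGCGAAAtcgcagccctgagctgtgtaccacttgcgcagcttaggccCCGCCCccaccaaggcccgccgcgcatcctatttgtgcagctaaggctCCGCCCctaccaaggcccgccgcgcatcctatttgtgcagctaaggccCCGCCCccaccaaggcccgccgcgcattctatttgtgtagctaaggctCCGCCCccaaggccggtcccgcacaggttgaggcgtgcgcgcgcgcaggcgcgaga
Msh6: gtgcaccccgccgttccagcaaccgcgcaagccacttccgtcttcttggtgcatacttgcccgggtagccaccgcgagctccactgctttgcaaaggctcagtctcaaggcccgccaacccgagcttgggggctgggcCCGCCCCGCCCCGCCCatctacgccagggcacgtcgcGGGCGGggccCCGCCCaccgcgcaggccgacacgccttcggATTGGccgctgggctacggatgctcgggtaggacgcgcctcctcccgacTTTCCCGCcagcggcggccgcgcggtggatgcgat
Polk upstream start: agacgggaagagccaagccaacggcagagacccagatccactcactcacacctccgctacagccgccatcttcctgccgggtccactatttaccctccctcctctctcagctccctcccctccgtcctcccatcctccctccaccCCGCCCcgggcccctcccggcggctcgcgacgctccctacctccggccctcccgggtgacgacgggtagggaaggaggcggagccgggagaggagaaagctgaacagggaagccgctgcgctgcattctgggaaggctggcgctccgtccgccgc
Polk internal start: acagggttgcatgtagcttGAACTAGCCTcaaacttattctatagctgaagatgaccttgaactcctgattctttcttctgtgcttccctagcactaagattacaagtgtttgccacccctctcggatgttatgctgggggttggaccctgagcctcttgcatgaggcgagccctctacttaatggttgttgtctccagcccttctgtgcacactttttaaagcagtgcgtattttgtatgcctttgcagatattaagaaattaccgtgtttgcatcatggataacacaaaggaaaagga

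Entries were found for 6 of the 8 genes, in 7 windows, and not for Poli and Rev3l. Both strands were searched for E2F sites (TTTGGCGC, TTTCCCGC, TTTGCCGC or TTTCGCGC), the cell cycle homology region CHR (TTTGAA), the CCAAT box, the GC box (GGGCGG) and the p53 decamer, 1 arm of the site p53 binds. E2F matches lay in 2 of the 7 windows, against 2.26% of all 32851 windows in the table. Msh3 had overlapping matches on opposite strands, which begin 202 and 198 bases before the start. Msh6 had 1 match, which begins 15 bases after the start. GC boxes lay in 6 of the 7 windows, against 35.7% of all windows, with 4 in Msh3 and 5 in Msh6, where neighbouring boxes on the minus strand share a base. CCAAT boxes lay in the Msh6 and Pms2 windows, against 37.4% of all, with 3 in Pms2. The 1 match to a p53 decamer began 231 bases before the internal Polk start, and 8.36% of all windows hold such a match. No window held the CHR letters, which 17.9% of all windows do. Polh and the upstream Polk window had 1 GC box each, and Rev1 had 3. These are matches of letters and not measured binding.

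**Figure D1:**
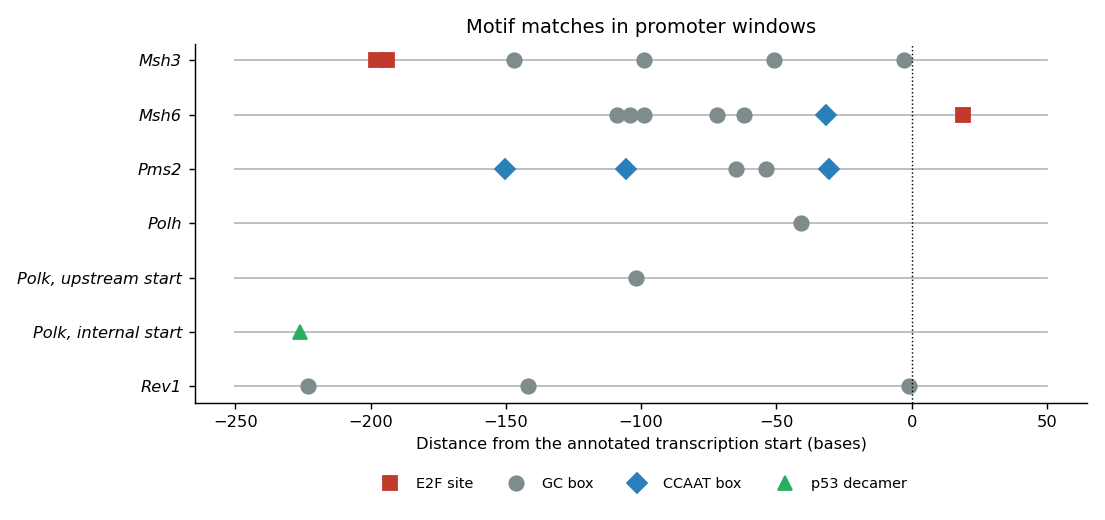
Positions of motif matches in the 7 promoter windows of 6 genes, by distance in bases from the annotated start (dotted line at 0); each symbol is 1 match on either strand. The E2F matches lie in Msh3 and Msh6, and the p53 decamer in the internal Polk window.

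Msh3 (ENSMUSG00000014850, chr13:92211872-92355003, minus strand) fell in marrow by more than the spread between libraries. The 5 vehicle libraries stood at 39.8, 42.5, 39.5, 37.2 and 38.8 CPM, and the 5 oxaliplatin libraries at 22.4, 24.9, 25.2, 25.8 and 26.5 CPM. Every oxaliplatin library was below every vehicle library. The group values were 39.6 ± 1.91 CPM with vehicle and 25.0 ± 1.58 CPM with oxaliplatin (SD, n = 5 each), a fall of 1.58-fold (log2 fold change -0.66, SE 0.0819, edgeR adjusted p = 4.4e-05). Groups that did not overlap were seen for 5 of the 8 genes in the downward direction, against 13.5% of all genes tested, and for 1 of 8 upward, against 11.4%.

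Msh6 (ENSMUSG00000005370, chr17:87975062-87990892, plus strand) was the most abundant of the 8 genes per length and fell in marrow with a wide spread. Its vehicle libraries stood at 112, 115, 105, 125 and 99.7 CPM, and its oxaliplatin libraries at 49.5, 65.3, 107, 77.0 and 64.4 CPM. Oxaliplatin replicate 3 lay within the vehicle range, and the other 4 lay below it. The group values were 112 ± 9.79 CPM with vehicle and 72.6 ± 21.3 CPM with oxaliplatin (SD, n = 5 each) (log2 fold change -0.62, SE 0.165, edgeR adjusted p = 0.0110). The coefficient of variation was 8.77% with vehicle and 29.4% with oxaliplatin. With the mean level of Y-linked genes as a covariate the adjusted p was 0.0678 at a log2 fold change of -0.49. That mean ran from 4.61 to 5.42 (log2 CPM) over the marrow libraries, so the covariate does not divide them into sexes.

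Pms2 (ENSMUSG00000079109, chr5:143909964-143933968, plus strand), the MutL nuclease subunit, had the largest marrow fold among the 8 genes. Vehicle libraries stood at 35.2, 34.2, 31.2, 40.7 and 27.9 CPM, and oxaliplatin libraries at 17.2, 21.8, 22.4, 19.5 and 19.3 CPM. The groups did not overlap. Means were 33.8 ± 4.77 CPM with vehicle and 20.03 ± 2.09 CPM with oxaliplatin (SD, n = 5 each), 1.69-fold lower (log2 fold change -0.76, SE 0.116, edgeR adjusted p = 2.5e-04). Pms2 shares 85 exon bases with Rsph10b on the same strand, a gene at 2.01 ± 0.357 CPM with vehicle and 0.553 ± 0.321 CPM with oxaliplatin.

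Among the Y-family polymerases, Polh and Polk moved in opposite directions in marrow. Polh (ENSMUSG00000023953, chr17:46171355-46202645, minus strand) stood at 71.2, 77.3, 74.4, 75.8 and 64.2 CPM with vehicle and at 38.6, 45.3, 56.0, 41.8 and 38.5 CPM with oxaliplatin, and the groups did not overlap. It went from 72.6 ± 5.20 to 44.0 ± 7.26 CPM (SD, n = 5 each), 1.65-fold lower (log2 fold change -0.72, SE 0.110, edgeR adjusted p = 2.4e-04). Polk (ENSMUSG00000021668, chr13:96480690-96542579, minus strand), which copies past bulky adducts and extends mispaired ends, was the gene that rose. It stood at 14.5, 16.4, 15.6, 14.8 and 12.9 CPM with vehicle and at 28.7, 21.6, 21.9, 23.6 and 23.1 CPM with oxaliplatin. Every oxaliplatin library was above every vehicle library, with a rise from 14.8 ± 1.30 to 23.8 ± 2.88 CPM, 1.603-fold (log2 fold change 0.68, SE 0.110, edgeR adjusted p = 3.7e-04).

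Poli (ENSMUSG00000038425, chr18:70508680-70530620, minus strand), the polymerase with the least accurate copying opposite thymine, was not called in marrow. Its libraries stood at 17.1, 15.0, 16.4, 17.4 and 12.4 CPM with vehicle and 10.8, 11.7, 16.3, 12.8 and 11.5 CPM with oxaliplatin, with 3 of 5 oxaliplatin libraries below the vehicle range. The log2 fold change was -0.31 (95% interval -0.61 to -0.0085, edgeR adjusted p = 0.108). Without oxaliplatin replicate 3 the log2 fold change was -0.42 and the edgeR adjusted p 0.0158. Poli did not pass in 19 of 20 other settings, that omission being the exception. Rev1 (ENSMUSG00000026082, chr1:38052786-38129801, minus strand), a deoxycytidyl transferase that also holds the other translesion polymerases together, stood at 55.5, 56.4, 54.2, 60.3 and 58.7 CPM with vehicle and 45.7, 41.7, 42.5, 45.0 and 49.6 CPM with oxaliplatin. The groups did not overlap and Rev1 fell 1.27-fold (log2 fold change -0.35, SE 0.0781, edgeR adjusted p = 0.00403). Scaled by library size alone its log2 fold change was -0.20 (edgeR adjusted p = 0.0631). Exons of Eif5b, a translation initiation factor on the opposite strand, cover 1643 bases or 26.6% of the Rev1 exon length. Eif5b rose in marrow from 85.9 ± 5.30 to 113 ± 17.2 CPM (log2 fold change 0.39, edgeR adjusted p = 0.0102), and whether counting used strand is not given in the sources used here, so reads in the shared stretch cannot be assigned with certainty.

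Rev3l (ENSMUSG00000019841, chr10:39732118-39875211, plus strand), the catalytic subunit of polymerase zeta, fell in marrow with little spread among controls. Vehicle libraries stood at 93.3, 92.0, 91.3, 88.1 and 91.1 CPM, and oxaliplatin libraries at 63.4, 59.7, 56.6, 60.6 and 73.8 CPM. The oxaliplatin libraries all lay below the vehicle range, and replicate 5 was nearest to it. The fall was 1.45-fold, from 91.2 ± 1.91 to 62.8 ± 6.59 CPM (log2 fold change -0.54, SE 0.0839, edgeR adjusted p = 2.9e-04). With a fold beyond 1.5 also required, Msh3, Msh6, Pms2 and Polh were lower and Polk higher, 5 of 8 genes, against 23.3% of all genes tested in marrow. Of all genes 11.8% were lower and 11.6% higher at that limit.

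**Figure D2:**
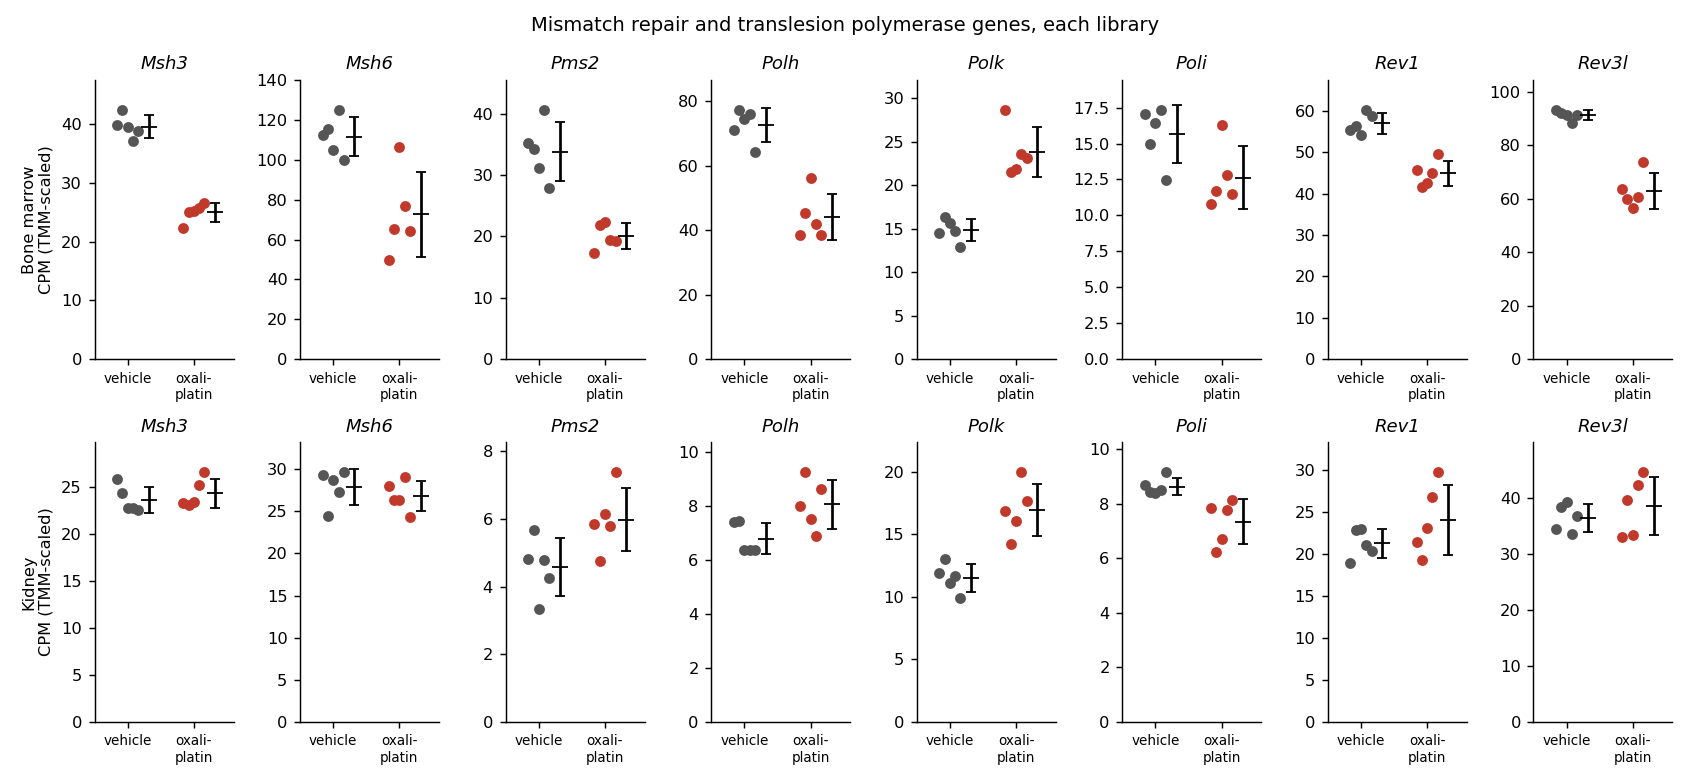
TMM-scaled CPM of the 8 genes in each library of bone marrow (upper row) and kidney (lower row), vehicle beside oxaliplatin, with 1 point per library and each axis from 0. In marrow the groups do not overlap for 6 genes, with Polk higher and Msh3, Pms2, Polh, Rev1 and Rev3l lower, and in kidney they do not overlap for Polk and Poli.

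In kidney Polk was the only one of the 8 genes called. Its vehicle libraries stood at 11.9, 13.03, 11.1, 11.6 and 9.92 CPM, and its oxaliplatin libraries at 16.9, 14.2, 16.1, 19.96 and 17.6 CPM. Every oxaliplatin library was above every vehicle library. The mean went from 11.5 ± 1.13 to 16.96 ± 2.11 CPM (SD, n = 5 each), 1.47-fold (log2 fold change 0.56, SE 0.104, edgeR adjusted p = 7.7e-04). No gene of the 8 passed edgeR beyond 1.5-fold in kidney, where 11.5% of all genes did, 7.68% as higher and 3.81% as lower. Without the fold limit 3 of 8 had an unadjusted p under 0.05, against 40.7% of all genes, and DESeq2 called 1, against 32.4%. None of the 3 was beyond 1.5-fold, which 14.5% of all genes were at an unadjusted p under 0.05.

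Poli in kidney had groups that did not overlap, at 8.70, 8.42, 8.38, 8.49 and 9.15 CPM with vehicle and 7.86, 6.23, 6.72, 7.75 and 8.13 CPM with oxaliplatin. All 5 oxaliplatin libraries were lower, but the log2 fold change of -0.23 (95% interval -0.46 to -0.0017) had an edgeR adjusted p of 0.120. Non-overlapping groups were seen for 2 of the 8 genes in kidney, against 20.7% of all genes tested, with Polk in the upward direction, against 9.69%, and Poli in the downward, against 11%. Pms2 stood at 4.82, 5.68, 3.33, 4.79 and 4.25 CPM with vehicle and 5.85, 4.75, 6.15, 5.79 and 7.38 CPM with oxaliplatin, with 4 of 5 oxaliplatin libraries above the vehicle range. Its log2 fold change was 0.39 (95% interval 0.05 to 0.72, edgeR adjusted p = 0.0740), and it passed the test at 0.47 (adjusted p = 0.0378) without vehicle replicate 2 and at 0.46 (adjusted p = 0.0406) without oxaliplatin replicate 2. Polh was alike in pattern, from 6.80 ± 0.591 to 8.07 ± 0.921 CPM, with 4 of 5 oxaliplatin libraries above the vehicle range (log2 fold change 0.25, 95% interval -0.0021 to 0.49, edgeR adjusted p = 0.127). Scaled by library size alone, Pms2 and Polh both passed in kidney, at 0.52 (edgeR adjusted p = 0.0260) and 0.38 (edgeR adjusted p = 0.0241).

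The other 4 genes were not called in kidney, and for each the interval of the difference is given. Msh3 was at 23.7 ± 1.42 CPM with vehicle and 24.4 ± 1.53 CPM with oxaliplatin (SD, n = 5 each), and its log2 fold change of 0.04 had a 95% interval of -0.12 to 0.20. Msh6 was at 27.9 ± 2.10 and 26.8 ± 1.79 CPM (log2 fold change -0.06, 95% interval -0.22 to 0.11). Rev1 was at 21.3 ± 1.70 and 24.1 ± 4.19 CPM (log2 fold change 0.18, 95% interval -0.04 to 0.41). Rev3l was at 36.5 ± 2.46 and 38.6 ± 5.23 CPM (log2 fold change 0.08, 95% interval -0.10 to 0.27). All 4 intervals lie within 1.5-fold in either direction.

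**Figure D3:**
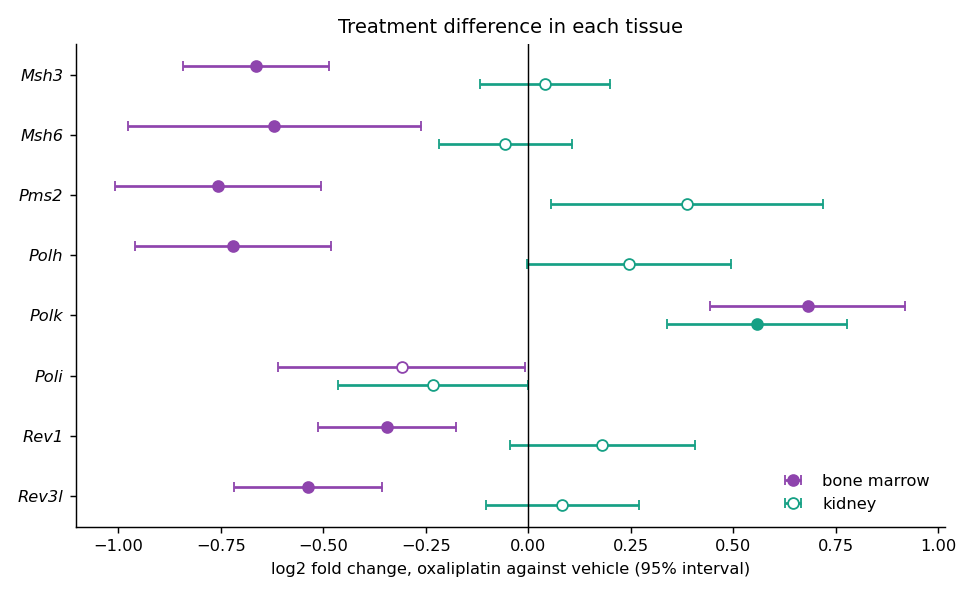
Log2 fold change of oxaliplatin against vehicle for each gene in bone marrow and kidney, with 95% intervals; filled points have an edgeR adjusted p under 0.05. In marrow 7 of 8 points are filled, and in kidney Polk alone is.

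Whether a response differed between tissues was tested as the tissue by treatment interaction in one fit of 20 libraries, given as the log2 fold change in kidney minus that in marrow. Of the 8 genes 5 were called, all with a higher fold change in kidney, against 30.1% of 24321 genes called in either direction, 13.1% in that direction and 17% in the other. The difference was 1.08 (SE 0.198, edgeR adjusted p = 2.4e-04) for Pms2 and 0.90 (SE 0.167, edgeR adjusted p = 2.6e-04) for Polh. It was 0.64 (SE 0.113, edgeR adjusted p = 1.6e-04) for Msh3, 0.56 (SE 0.121, edgeR adjusted p = 0.00112) for Rev3l and 0.47 (SE 0.134, edgeR adjusted p = 0.0105) for Rev1. None of these 5 genes was called in kidney. Msh6 had a difference of 0.49 (SE 0.206, edgeR adjusted p = 0.0750), and it did not pass in 27 of 30 other settings. When a library was left out it ran from 0.33 to 0.70, the latter without marrow oxaliplatin replicate 3 (edgeR adjusted p = 7.3e-04). Polk had a difference of -0.18 (SE 0.148, edgeR adjusted p = 0.391), with a 95% interval of -0.49 to 0.13, so a difference of either sign between the rises lies within it. For Poli it was 0.0087 (95% interval -0.38 to 0.39, edgeR adjusted p = 0.993).

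Levels between genes and tissues were set side by side as CPM per kilobase (kb) of exon on one scaling of all 20 libraries, as a description without a test. Msh6 stood first in vehicle marrow at 21.9 ± 1.63 CPM per kb and in vehicle kidney at 7.38 ± 0.570 CPM per kb. Polk stood last in vehicle marrow at 2.28 ± 0.186 CPM per kb, and Pms2 last in vehicle kidney at 0.648 ± 0.122 CPM per kb. Vehicle marrow was above vehicle kidney 7.92-fold for Polh, 5.49-fold for Pms2, 2.96-fold for Msh6, 1.99-fold for Rev1, 1.86-fold for Rev3l, 1.34-fold for Poli and 1.24-fold for Msh3, and the ratio was 0.956 for Polk.

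The order of the 4 groups differed among genes. For Pms2, Polh, Rev1 and Rev3l it ran from vehicle marrow through oxaliplatin marrow and oxaliplatin kidney to vehicle kidney, and the ranges of the 2 kidney groups overlapped while the other neighbours were apart. For Msh6 the marrow groups overlapped each other, as did the kidney groups, and the tissues were apart. Msh3 had vehicle marrow first and oxaliplatin marrow last, below both kidney groups, which overlapped. Polk ran the other way, with oxaliplatin marrow at 3.79 ± 0.375 and oxaliplatin kidney at 3.50 ± 0.401 CPM per kb, ranges overlapping, above vehicle kidney at 2.38 ± 0.239 and vehicle marrow at 2.28 ± 0.186 CPM per kb, whose ranges overlapped too. For Poli the marrow groups overlapped, oxaliplatin marrow overlapped vehicle kidney, and oxaliplatin kidney was lowest, apart from vehicle kidney and overlapping oxaliplatin marrow at its edge.

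Among the 4 Y-family polymerases the share of the summed level per kb held by Polk does not depend on the scaling between libraries; it was chosen after the values were seen and has no test. In marrow it was 9.53 ± 0.555% with vehicle (range 9.02 to 10.2%) and 19.5 ± 2.76% with oxaliplatin (range 16.2 to 23.8%). In kidney it was 23.5 ± 1.61% (range 21.2 to 25.0%) and 30.1 ± 1.87% (range 27.7 to 32.6%). The ranges did not overlap in either tissue. The ratio of Polk to Polh per kb went from 0.219 to 0.595 in marrow, and in kidney from 1.81 to 2.30 with overlapping ranges.

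**Figure D4:**
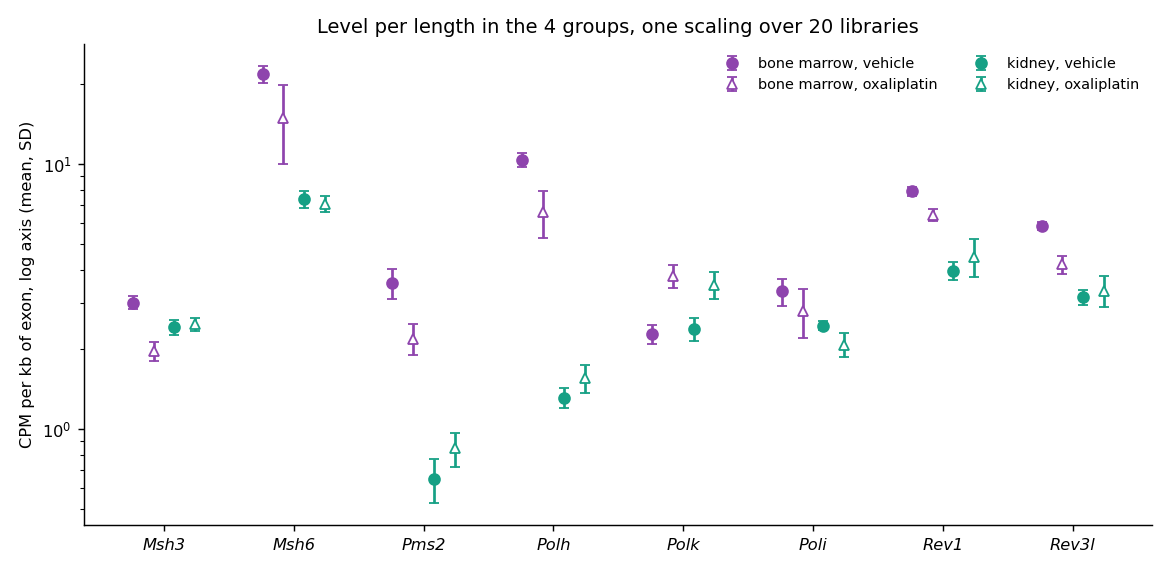
CPM per kb of exon of the 8 genes in the 4 groups on a log axis, mean and SD of 5 libraries, scaled together over 20 libraries. Polh and Pms2 show the widest gap between vehicle marrow and vehicle kidney, at 7.92-fold and 5.49-fold, and Polk has its highest levels in the 2 oxaliplatin groups.

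Other genes of the pathways were counted over 4 lists: mismatch repair partners, meiotic MutS homologs, replication factors shared with repair synthesis, and translesion partners with the PCNA ubiquitin switch. In marrow 19 of 32 tested were lower and none higher, against 16.8% and 16.3% of all genes tested. The all-gene median log2 fold change was -0.04. Of 4 mismatch repair partners 3 fell (median -0.46), among them Pms1, a MutL homolog (log2 fold change -0.55, edgeR adjusted p = 0.0302), and Exo1, the exonuclease that removes the error-bearing strand (log2 fold change -0.54, edgeR adjusted p = 0.0350). Both meiotic homologs fell, Msh5 (log2 fold change -1.03, edgeR adjusted p = 9.2e-05) and Msh4 (log2 fold change -1.01, edgeR adjusted p = 0.0494). Of 14 replication factors 8 fell (median -0.47), led by the DNA ligase Lig1 (log2 fold change -0.93, edgeR adjusted p = 9.5e-04) and Pcna, the sliding clamp (log2 fold change -0.88, edgeR adjusted p = 0.00399). Of 12 translesion genes 6 fell (median -0.29), led by Polq, polymerase theta (log2 fold change -1.05, edgeR adjusted p = 2.5e-04), and Primpol, which restarts synthesis beyond a lesion (log2 fold change -0.96, edgeR adjusted p = 3.9e-05). The median of the 8 genes in marrow was -0.58. Scaled by library size alone, 11 of the pathway genes were lower and 2 higher in marrow, and the share of all genes under that scaling was not counted.

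In kidney 6 of 31 tested pathway genes were called, against 29.4% of all genes tested. Of these 3 were higher and 3 lower, against 14.4% and 15% of all genes. The pathway genes were thus not called more often than all genes. The all-gene median log2 fold change was 0.02. Exo1 rose from 0.234 ± 0.147 to 0.782 ± 0.285 CPM (log2 fold change 1.71, edgeR adjusted p = 0.00619). At so low a vehicle level Exo1 may have passed the filter on low counts only through its oxaliplatin libraries. Its rise cannot be read apart from that filter. Pold1, the catalytic subunit of polymerase delta, rose (log2 fold change 0.44, edgeR adjusted p = 0.00776), as did its partner Pold2 (log2 fold change 0.33, edgeR adjusted p = 0.0107). Rfc2, of the clamp loader, fell (log2 fold change -0.21, edgeR adjusted p = 0.0381). The ubiquitin-conjugating enzymes that act with Rad18 on the clamp fell as well, Ube2a (log2 fold change -0.30, edgeR adjusted p = 0.0300) and Ube2b (log2 fold change -0.27, edgeR adjusted p = 0.00736). The medians were -0.01 for 4 mismatch repair partners, 0.35 for 2 meiotic homologs, 0.05 for 14 replication factors and -0.12 for 11 translesion genes, and 0.13 for the 8 genes. Scaled by library size alone, 9 of the pathway genes were higher and none lower in kidney, where the share of all genes under that scaling was not counted either.

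**Figure D5:**
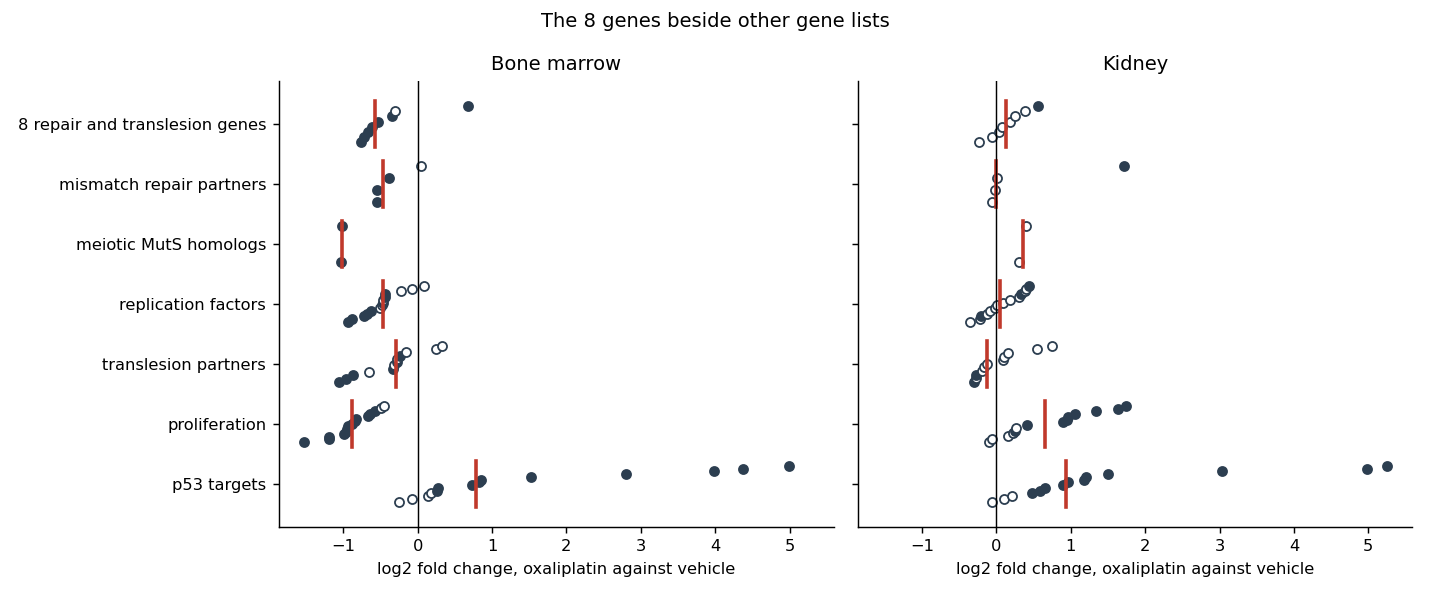
Log2 fold change of oxaliplatin against vehicle for each tested gene of the 8 repair and translesion genes, the pathway lists, and the proliferation and p53 target lists, in marrow (left) and kidney (right). In marrow 19 of 32 pathway genes are called lower, against 16.8% of all genes tested. In kidney 3 of 31 are called lower and 3 higher, against 15% and 14.4%.

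The cell type markers of the libraries moved with treatment. In marrow all 8 erythroid markers fell (summed level 23345 to 41000 CPM with vehicle, 3110 to 7642 CPM with oxaliplatin) and all 7 B cell markers fell (313 to 552 against 92.3 to 139 CPM). All 6 adipocyte markers rose (76.2 to 143 against 492 to 2460.5 CPM) and 5 of 7 macrophage markers rose (1016 to 1415 against 1274 to 2753 CPM), while none of 8 neutrophil markers was called. Of 15 proliferation genes 13 fell (median -0.88), from 6347 to 8128 CPM with vehicle to 2563 to 4865 CPM with oxaliplatin. Oxaliplatin replicate 3 held the highest Msh6, Pms2, Polh and Poli of its group and the lowest Rev3l, and Msh3, Polk and Rev1 were at neither end. Within its group it had the highest proliferation sum and the lowest sums of neutrophil (9556 CPM), macrophage (1274 CPM) and T cell (36.0 CPM) markers and of the leukocyte marker Ptprc (163 CPM). Of 14 p53 targets 10 rose (median 0.78, summed 446 to 488 against 780 to 979 CPM). The part of each of these in the levels of the 8 genes was not tested.

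In kidney 9 of 14 proliferation genes rose (median 0.65, summed 104 to 121 against 123 to 155 CPM) and 11 of 14 p53 targets rose (median 0.93, summed 471 to 556 against 994 to 1168 CPM). Proximal tubule markers had 3 of 6 lower and 1 higher (15624 to 18365 against 12098 to 15659 CPM). All 4 podocyte markers rose (231 to 239 against 334 to 411 CPM) and 2 of 3 tested tubular injury markers rose (275 to 321 against 503 to 639 CPM). Macrophage markers had 4 of 7 lower and 1 higher (43.3 to 52.9 against 24.7 to 37.7 CPM), and 4 of 5 tested adipocyte markers rose (20.1 to 41.7 against 60.4 to 176 CPM). Loop, distal and collecting duct markers had 3 of 6 higher (4741 to 5591 against 5858 to 6432 CPM). Their part in the Polk rise was not tested. The tissue labels were checked on defining markers: proximal tubule markers summed to 1.98 to 5.51 CPM in marrow, and neutrophil markers to 0.346 to 2.77 CPM in kidney. Total counts per library ran from 30660150 to 41140530 in marrow and from 24393010 to 30925430 in kidney, and the 8 genes together held 9318 to 16121 and 3309 to 5572 reads.

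The genes whose pattern over the 20 libraries lay nearest to each of the 8 were found by the root mean square distance between log2 CPM values centred per gene, a description in which the points share tissue and treatment. For Msh3 Numa1 is given (distance 0.092), for Msh6 they were Xrcc6 (0.096) and Hmgb3 (0.132), and for Pms2 Smchd1 (0.179) and Gabpb2 (0.198). For Polh they were Plagl2 (0.142) and Pola2 (0.151), for Polk Pard3b (0.167) and Prkch (0.170), and for Poli Nap1l4 (0.126) and Pithd1 (0.132). For Rev1 they were Arglu1 (0.102) and Rbm39 (0.103), and for Rev3l Mllt10 (0.087) and Marf1 (0.102). The median distance to all genes lay between 0.907 and 1.41 for the 8 genes.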

How the data were processed

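The authors deposited raw counts per gene, 1 table for kidney and 1 for bone marrow, each with 5 vehicle and 5 oxaliplatin libraries. Per the labels, ribosomal RNA was removed and random hexamers primed reverse transcription, whereas the study's methods describe another kit. The submitters' processing notes name bcl2fastq, STAR, Subread, featureCounts and Salmon. The gene annotation is of GRCm38. Whether counting used strand is not given in the sources used here. Of 55774 rows per table, 1 lacked a value and 287 repeated an identifier, which left 55486 genes.

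Counts were filtered with filterByExpr (minimum count 10) and scaled by TMM, and tested with edgeR 4.0.16 (robust quasi-likelihood fit, two-sided) in R 4.3.3, each tissue alone, with Benjamini-Hochberg adjustment over all genes tested and a threshold of 0.05. The interaction used all 20 libraries. The fits were tested on simulated data. Alternatives were DESeq2 1.42.0, other scalings, filters and covariates, a replicate block, and leaving out each library. Vehicle and oxaliplatin libraries were treated as unpaired in the main fits. The named genes were the 8 genes, in each pathway list and tissue up to 2 called genes with the largest rise and 2 with the largest fall, and the 2 nearest patterns per gene, of which some are not reported here. Named outside that rule were genes whose exons overlap one of the 8. The 8 genes and all lists were chosen with earlier results of these data known. Coordinates (GRCm38) and exon lengths were taken from GENCODE M21 and promoters from RefSeq. P-values weigh the difference between groups against the spread between libraries.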

Additional observations from a re-analysis of the deposited data

Results flagged for a closer look

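For 5 of the 8 genes the treatment response differed between the tissues in the interaction test, given as the log2 fold change in kidney minus that in marrow. Pms2 had a difference of 1.08, Polh of 0.90, Msh3 of 0.64, Rev3l of 0.56 and Rev1 of 0.47, each with an edgeR adjusted p under the threshold. In all 5 the marrow value was negative and the kidney value above 0. No library stood far from the other 4 of its group by Dixon's ratio in any of the 32 gene and group combinations checked.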

How the results depend on the processing

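Of 560 recomputed values for single genes, 535 kept their direction and side of the threshold, 2 no longer passed, 8 passed in addition and 15 changed sign. In marrow 5 to 7 of the 8 genes were called over the other settings and 7 to 8 when a library was left out, and the interaction gave 5 to 6. In kidney the count was 3 when scaled by library size alone (Polk, Pms2 and Polh), 0 when a fold beyond 1.5 was also required, and 1 to 2 when a library was left out. With the fold limit the share of all genes was 23.3% in marrow and 11.5% in kidney. For most other settings, library size alone among them, that share was not counted, so these counts have no background. With a replicate block 7 genes were called in marrow, 1 in kidney and 5 in the interaction, as without it. Vehicle and oxaliplatin libraries of the same number correlated at -0.12 to 0.23 in marrow and -0.15 to 0.075 in kidney. Vehicle marrow replicate 5 and vehicle kidney replicate 1 correlated best with their own number, and the others did not. With so few libraries this cannot settle whether the numbers pair treatments. Same-numbered marrow and kidney libraries correlated at -0.05 to 0.02 with vehicle and -0.05 to 0.16 with oxaliplatin. Oxaliplatin replicates 3 (0.12) and 5 (0.16) and vehicle replicate 2 (0.02) correlated best with their own number and the other 7 did not, and whether tissues share mice is not known. The block changed no call of the 8 genes. Pathway genes called beyond 1.5-fold were 10 of 32 in marrow, all lower, against 11.8% of all genes tested as lower and 23.3% either way. In kidney 1 of 31 was, the low-count Exo1 as higher, against 7.68% of all genes as higher and 11.5% either way. Library size alone shifted the median of all genes by 0.15 in marrow and 0.13 in kidney, and gave Msh6 in kidney a log2 fold change of 0.080. The Poli interaction, near 0 at 0.0087, was -0.021 without hemoglobin genes, -0.0075 with no filter, -0.059 with the Y-linked covariate and -0.093 to 0.15 when a library was left out. The Msh6 interaction passed at 0.55 (edgeR adjusted p = 0.0332) with library size alone and at 0.61 (edgeR adjusted p = 0.0110) with at least 10 counts in every library. The causes were not tested. Counts of Pms2, Polh and Poli in kidney were the lowest, which limits the precision there.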
